A study of Mus musculus and Homo sapiens with 20 samples.

Results

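Open chromatin at the genes of cytochrome P450 families 2, 3 and 4 was examined in 12 ATAC-seq libraries of mouse hepatocytes. Peaks of the 12 libraries were merged where they overlapped by 1 bp, and a merged region was a member when its nearest protein-coding gene body, within 50 kb, was a Cyp2, Cyp3 or Cyp4 gene. This rule gave 1090 of 642948 regions. Of these, 206 had a peak in all 12 libraries and were tested, out of 101575 such regions in all. The 206 lay at 63 of 77 member genes, which form 16 gene clusters or lone genes. The other 884 member regions lacked a peak in at least 1 library, and 459 of them were listed in 1 library only.

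The libraries fell into 4 groups of 3. Every group consisted of hepatocytes with a floxed Ahr allele, labelled 4 weeks. The groups were Cont_Ad_Cont, B2_minus_Ad_Cont, Cont_Ad_Cre and B2_minus_Ad_Cre. B2_minus stands for vitamin B2 (riboflavin) deficiency against a control condition. Cre is the recombinase that cuts out DNA between loxP sites, and Ahr encodes the aryl hydrocarbon receptor. Ad_Cont is the control for Ad_Cre. The labels used here give no strain, animal age, deleted exon or route of the deficiency. They also leave unsaid whether the replicates came from separate mice or dishes, and the spread behind each p-value may therefore be technical. Over the 9 tested regions at Ahr, the lowest edgeR adjusted p for Ad_Cre against Ad_Cont was 0.222 in control and 0.573 in B2_minus, so these regions do not check the deletion.

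Cytochrome P450 enzymes are haem proteins that add oxygen to drugs, steroids and fatty acids, with electrons passed from the flavoprotein Por, which carries cofactors made from riboflavin. Families 2 and 3 hold most drug-metabolising enzymes of the liver, and family 4 enzymes hydroxylate fatty acids and eicosanoids. Many lie in arrays of near-identical neighbours. The receptors CAR (Nr1i3), PXR (Nr1i2) and PPAR-alpha (Ppara) and growth hormone signalling through Stat5b and Bcl6 are known to set their levels in the liver.

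The starts of 7 genes are printed because the results turn on them. Cyp2d10 and Cyp3a59 are the starts that passed the test for B2_minus, and Cyp2d9 and Cyp3a25 are their close relatives. Cyp3a11 and Cyp2e1, drug-metabolising enzymes, are shown for their weak starts, and Cyp2r1, the vitamin D 25-hydroxylase, had the strongest start. Each sequence is the 250 bases before the RefSeq start on GRCm38.p6, the assembly of mm10, read 5′ to 3′ on the gene's strand. Capitals mark matches to the motifs searched.
Cyp2d10: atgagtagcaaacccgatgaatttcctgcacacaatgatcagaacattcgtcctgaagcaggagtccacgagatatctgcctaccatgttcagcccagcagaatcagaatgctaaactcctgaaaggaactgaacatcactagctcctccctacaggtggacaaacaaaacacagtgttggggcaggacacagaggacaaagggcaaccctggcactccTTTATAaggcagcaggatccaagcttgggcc
Cyp2d9: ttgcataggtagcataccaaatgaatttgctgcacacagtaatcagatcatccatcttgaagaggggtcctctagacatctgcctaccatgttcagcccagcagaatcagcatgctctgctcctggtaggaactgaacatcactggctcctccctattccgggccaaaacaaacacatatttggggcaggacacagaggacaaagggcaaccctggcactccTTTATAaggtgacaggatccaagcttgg
Cyp3a59: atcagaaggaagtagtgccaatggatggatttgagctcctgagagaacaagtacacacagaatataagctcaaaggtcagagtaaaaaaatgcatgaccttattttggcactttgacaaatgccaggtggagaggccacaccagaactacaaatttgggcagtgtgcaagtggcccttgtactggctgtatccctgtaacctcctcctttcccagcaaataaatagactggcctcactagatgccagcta
Cyp3a25: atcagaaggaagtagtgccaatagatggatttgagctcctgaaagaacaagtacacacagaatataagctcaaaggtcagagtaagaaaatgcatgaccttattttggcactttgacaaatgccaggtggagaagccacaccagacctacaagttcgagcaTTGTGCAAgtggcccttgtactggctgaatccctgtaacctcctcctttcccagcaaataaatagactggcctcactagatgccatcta
Cyp3a11: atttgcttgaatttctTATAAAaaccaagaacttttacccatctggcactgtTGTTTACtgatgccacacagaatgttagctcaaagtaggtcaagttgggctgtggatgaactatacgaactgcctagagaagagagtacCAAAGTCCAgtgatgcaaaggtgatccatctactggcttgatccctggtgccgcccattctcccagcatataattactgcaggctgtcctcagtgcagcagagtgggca
Cyp2e1: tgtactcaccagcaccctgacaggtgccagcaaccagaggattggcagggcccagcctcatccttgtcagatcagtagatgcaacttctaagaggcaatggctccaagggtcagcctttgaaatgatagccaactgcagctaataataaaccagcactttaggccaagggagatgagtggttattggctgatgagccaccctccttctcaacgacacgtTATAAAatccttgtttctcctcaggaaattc
Cyp2r1: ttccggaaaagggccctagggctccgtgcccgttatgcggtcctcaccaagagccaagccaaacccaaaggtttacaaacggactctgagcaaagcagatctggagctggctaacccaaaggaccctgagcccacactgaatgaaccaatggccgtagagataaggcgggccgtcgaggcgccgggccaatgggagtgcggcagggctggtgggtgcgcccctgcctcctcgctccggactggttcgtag

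These windows lie at chr15:82407195-82407444 (minus strand) for Cyp2d10, chr15:82452127-82452376 (plus) for Cyp2d9, chr5:146079008-146079257 (plus) for Cyp3a59 and chr5:146009618-146009867 (minus) for Cyp3a25. Those of Cyp3a11, Cyp2e1 and Cyp2r1 lie at chr5:145879855-145880104 (minus), chr7:140763569-140763818 (plus) and chr7:114562973-114563222 (minus). Cyp2d10 and Cyp2d9 both carry the letters of the TATA box on the other strand, 31 to 26 bases before the start in Cyp2d10 and 28 to 23 in Cyp2d9. Their windows were 83.2% identical over 300 bases. The windows of Cyp3a59 and Cyp3a25 were 95.7% identical. A match to the C/EBP letters was found 89 to 82 bases before the start of Cyp3a25 and none of the 6 motifs in the window of Cyp3a59. Cyp2e1 has the TATA letters 31 to 26 bases before its start. Cyp3a11 has them near the far end of the printed bases, FOXA letters at 198 to 192 and HNF4A letters at 109 to 101 bases before its start. Cyp2r1 has no match in the printed bases, which are 61.6% G or C and hold 16 CpG dinucleotides. Reads from such copies may be split between them or assigned to the wrong one, so values at near-identical starts are uncertain. Of 56 member genes whose window could be compared with a relative in the same cluster, 8 had one at least 95% identical. They include Cyp2b9 with Cyp2b13 (99.3%), Cyp2a4 with Cyp2a5 (97.7%) and Cyp3a41a with Cyp3a41b (97.3%).

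RefSeq start windows of 300 bases, 250 before and 50 after the start, were found for 63 of the 77 genes, as 70 windows. Each motif was searched on both strands. TATAAA, the letters of the TATA element, was in 38.6% of member windows and in 13.6% of all 32851 windows of the genome. For the FOXA factors, TGTTTAC was found in 14.3% of member windows against 3.65%. For HNF4A, a main hepatocyte factor, CAAAGTNCA was found in 20% against 1.41%. For the C/EBP factors, TTGCNNAA was found in 27.1% against 10.8%. An HNF1 motif was in 1 of the 70 member windows (1.43%) against 0.155%. The AhR core, GCGTG, was the exception, in 18.6% of member windows against 32.4%. The median GC content of the first window of each member gene was 47.7% against 52.7% over all windows. Of the 70 windows, 34 had a peak in all 12 libraries and 36 did not. FOXA letters were in 2 of the 34 and 8 of the 36, and HNF4A letters in 5 and 9. TATA letters were in 12 and 15, and C/EBP letters in 10 and 9. Some windows belong to 1 gene or to near-identical genes, so they are not independent. A match is a description of letters and no test was made on it.

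**Figure D1:**
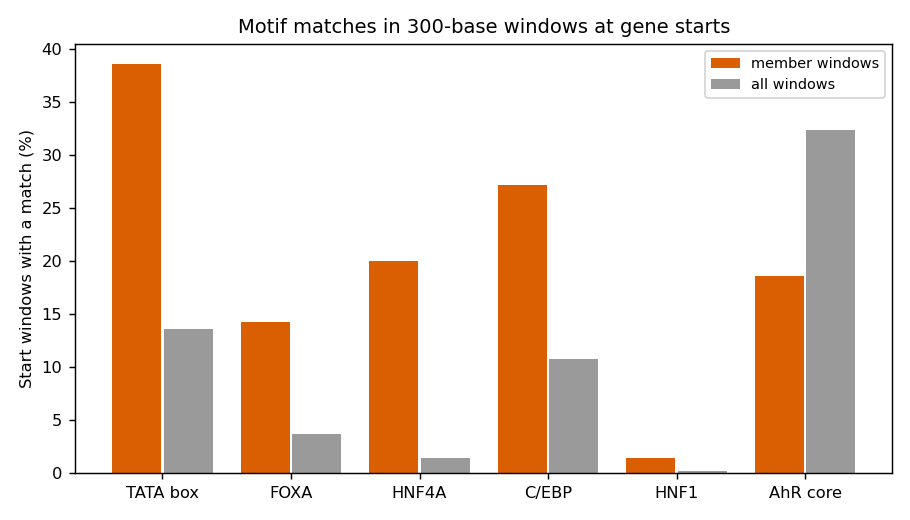
Share of 300-base windows at gene starts that hold each motif, in percent on the y axis, for the 70 windows of member genes and all 32851 windows. The AhR core was less common in member windows than in all windows, at 18.6% and 32.4%, and the other 5 were more common. The HNF1 bar of member windows rests on 1 window.

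A peak lay over the start in all 12 libraries for 29 of the 63 genes, in some libraries for 16 and in none for 18. The start of Cyp2r1 held the most tags of any member region, 101.8 scaled tags on average, rank 768 of all tested regions. Scaled tags are the deposited tag counts divided by each library's relative size. The next strongest starts were those of Cyp2j6, an epoxygenase of arachidonic acid (82.5), Cyp3a13 (76.5), Cyp4v3, a fatty acid hydroxylase (75.5), and Cyp4f13 (69.2). The start of Cyp2d10 averaged 47.9, that of Cyp4f14, a leukotriene hydroxylase, 40.9 and that of Cyp2d9 35.3. At the weak end of the 29 were Cyp2d26 at 12.3, Cyp2e1, the ethanol-inducible enzyme, at 12.4, and Cyp3a11 at 13.1. Cyp2a5, a coumarin hydroxylase, averaged 13.9 and Cyp2b10, the classical CAR target, 15.7.

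Of the 9 genes listed as female-biased in mouse liver, Cyp2b9, Cyp2b13, Cyp2c40, Cyp3a16, Cyp3a41a, Cyp3a41b and Cyp3a44 had no peak at the start in any library, Cyp2a4 had one in 4 libraries and Cyp2c69 in 1. Other starts with no peak included Cyp2c38, Cyp2c55, Cyp2c65 and Cyp2c66 of the Cyp2c cluster. A start below the lowest listed count of a library, 6 to 8 tags, is absent from its list, so no peak does not mean no tags. Reads split between near-identical copies may also leave a start without a peak. Of the female-biased genes, all but Cyp2c40 had a relative with a window at least 91.1% identical. Among genes listed as male-biased, only Cyp2d9 had a start window, with a peak in all 12 libraries. Sex was not compared, and the part of copy likeness was not tested. In the Cyp2c cluster 3 of 13 genes with a window were open in all 12 libraries, in the Cyp3a cluster 3 of 8 and in the Cyp4f cluster 5 of 7.

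**Figure D2:**
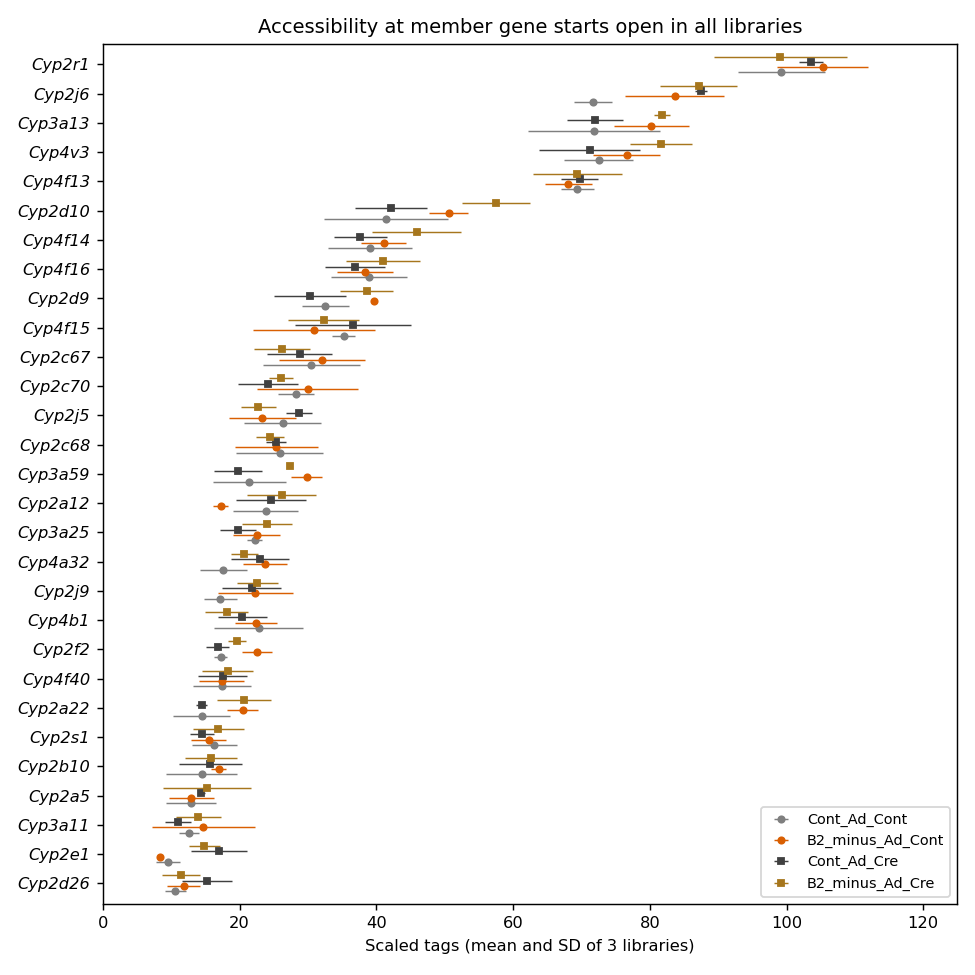
Scaled tags at the 29 member gene starts with a peak in all 12 libraries, as mean and SD of the 3 libraries of each group (x axis), ordered by the mean of all libraries. Cyp2r1 stands at 101.8 and Cyp2e1 at 12.4 on average, and the 4 groups overlap at most starts.

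Of the 206 tested regions, 61 lay within 1 kb of a gene end (29.6%), 54 inside a gene (26.2%) and 91 outside (44.2%). Over all tested regions the shares were 21.2%, 46.1% and 32.6%. The median level of member regions was 18.5 scaled tags against 23.3 for all tested regions, and 12 members (5.83%) were among the top 10% of regions. The strongest region of the Cyp2d cluster lay 10294 bp outside Cyp2d10 (chr15:82417547-82417846), with 70.5 ± 0.831 scaled tags in Cont_Ad_Cont and 75.7 ± 3.16 in B2_minus_Ad_Cont (SD, n = 3). In the Cyp3a cluster the strongest region lay 31893 bp outside Cyp3a11 (chr5:145911747-145912097). It averaged 41.7 ± 4.1 in Cont_Ad_Cont and 48.4 ± 6.46 in B2_minus_Ad_Cont (SD, n = 3), above the 12.6 ± 1.47 and 14.7 ± 7.52 at the start of Cyp3a11 itself. Cyp2u1, a fatty acid hydroxylase, held 84.5 ± 6.82 scaled tags at a gene end in Cont_Ad_Cont and 88.6 ± 4.52 in B2_minus_Ad_Cont (chr3:131303052-131303363).

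Vitamin B2 deficiency was compared with control in each arm and over both. With Ad_Cont, 0 of the 206 members passed an adjusted p of 0.05 by edgeR's quasi-likelihood test, where 1.04% of all tested regions did. With Ad_Cre the count was also 0, against 1.13%. Unadjusted p was under 0.05 for 27 members with Ad_Cont (14 higher, 13 lower) and 31 with Ad_Cre (23 higher, 8 lower). These are 13.1% and 15.05% of members, near the 13.2% and 13.4% of all tested regions. DESeq2 called 0 of all 101575 regions in both arms. Limma called 0 members with Ad_Cont and 1 with Ad_Cre, against 1.06% and 0.778% of all regions. Averaged over both arms, which adds libraries to each side, 7 members rose and 1 fell. These 8 are 3.88% of the members, below the 5.78% of all tested regions that were called (2.45% higher and 3.33% lower). Read against that background, the count does not set the members apart.

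The 8 called regions differed by 0.26 to 0.70 in size on the log2 scale. Cyp2d10, a member of the large mouse Cyp2d family, held 2 of them. Its start region (chr15:82407074-82407392) had 44.2, 48.8 and 31.3 scaled tags in Cont_Ad_Cont and 50.2, 48.0 and 53.7 in B2_minus_Ad_Cont. With Ad_Cre it had 38.6, 39.8 and 48.2 in control and 62.6, 57.5 and 52.6 in B2_minus. The conditions overlapped with Ad_Cont, by 1 control library, and did not with Ad_Cre. The averaged log2 fold change was 0.35 (SE 0.0898, edgeR adjusted p 0.00679). The second region lay 16194 bp outside Cyp2d10 (chr15:82423447-82423778). It had 35.4, 36.8 and 33.5 scaled tags in Cont_Ad_Cont and 42.1, 42.6 and 47.3 in B2_minus_Ad_Cont. With Ad_Cre the values were 28.7, 24.9 and 35.9 in control and 43.8, 40.2 and 45.3 in B2_minus. All 6 B2_minus libraries lay above all 6 control libraries, and the averaged log2 fold change was 0.42 (SE 0.103, edgeR adjusted p 0.00529).

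In family 3, the start of Cyp3a59 (chr5:146079030-146079292) had 15.5, 22.9 and 25.9 scaled tags in Cont_Ad_Cont and 32.3, 27.7 and 29.5 in B2_minus_Ad_Cont. With Ad_Cre it had 18.7, 16.9 and 23.7 in control and 27.1, 27.8 and 27.2 in B2_minus. Again the 6 B2_minus libraries stood above the 6 control libraries, with a log2 fold change of 0.46 (SE 0.139, edgeR adjusted p 0.0270). At the near-identical start of Cyp3a25 (chr5:146009571-146009840) the value was 0.14 (SE 0.146, edgeR adjusted p 0.657), with 21.0, 22.9 and 22.7 scaled tags in Cont_Ad_Cont and 18.8, 25.6 and 23.1 in B2_minus_Ad_Cont. The difference between the pair was not tested. A region inside Cyp3a13 (chr5:137922236-137922519) held 48.6, 46.8 and 42.1 scaled tags in Cont_Ad_Cont and 59.1, 53.3 and 47.3 in B2_minus_Ad_Cont. With Ad_Cre it held 46.3, 50.7 and 49.1 in control and 60.5, 58.4 and 61.7 in B2_minus. The conditions overlapped with Ad_Cont and not with Ad_Cre, and the log2 fold change was 0.26 (SE 0.0827, edgeR adjusted p 0.0367).

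Outside Cyp2u1, 6880 bp away (chr3:131283364-131283611), control libraries held 66.3, 71.7 and 57.2 scaled tags with Ad_Cont and 69.5, 56.7 and 67.5 with Ad_Cre. B2_minus libraries held 78.9, 78.9 and 74.7 with Ad_Cont and 77.2, 83.3 and 72.5 with Ad_Cre, above every control library. The log2 fold change was 0.26 (SE 0.0681, edgeR adjusted p 0.0102). Cyp2c23, an arachidonic acid epoxygenase best known from the kidney, had a called region 5572 bp outside it (chr19:43999179-43999450). Controls held 32.0, 28.9 and 37.8 scaled tags with Ad_Cont and 22.1, 32.8 and 23.7 with Ad_Cre. B2_minus libraries held 35.8, 36.2 and 44.2, and 33.4, 43.1 and 34.5. The conditions overlapped with Ad_Cont and not with Ad_Cre, with a log2 fold change of 0.37 (SE 0.114, edgeR adjusted p 0.0348). The other 5 tested regions of Cyp2c23 all had a log2 fold change below 0.

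In family 4, 1 region was called, within 1 kb of an end of Cyp4f13 (chr17:32924667-32925002). Controls held 48.6, 42.8 and 45.3 scaled tags with Ad_Cont and 51.8, 42.8 and 42.1 with Ad_Cre. B2_minus libraries held 43.9, 49.0 and 58.9 with Ad_Cont, which overlapped control, and 61.5, 59.4 and 57.1 with Ad_Cre, which did not. The log2 fold change was 0.27 (SE 0.086, edgeR adjusted p 0.0437). At the strong start of the same gene it was -0.02 (SE 0.0683, edgeR adjusted p 0.920).

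The 1 called region that fell lay 34985 bp outside Cyp2b10 (chr7:25862386-25862673). It held 19.9, 14.9 and 18.4 scaled tags in Cont_Ad_Cont and 13.4, 6.4 and 9.47 in B2_minus_Ad_Cont. With Ad_Cre it held 15.4, 11.9 and 12.3 in control and 6.26, 13.4 and 6.35 in B2_minus, where 1 library overlapped control. The log2 fold change was -0.70 (SE 0.185, edgeR adjusted p 0.0104). The lowest of these values are near the lowest listed counts, so the fall is bounded by them. A tested region nearby (chr7:25860315-25860660) was not called in the main fit but was called higher under some alternatives. Its log2 fold change was 0.62 without B2_minus_Ad_Cre replicate 3 (edgeR adjusted p 0.0441). With libraries scaled by listed tags it was 0.58 (edgeR adjusted p 0.0320), and the fall was also called there. A further region at the same gene moved opposite to the called one in presence. It lay 27383 bp outside Cyp2b10 (chr7:25869927-25870275) and had a peak in 6 of 6 B2_minus libraries, at 6.26 to 9.59 scaled tags, and in 0 of 6 control libraries. It was the only member region present in every library of 1 condition and in none of the other. Among all regions 45 were of this kind and 76 of the reverse kind.

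**Figure D3:**
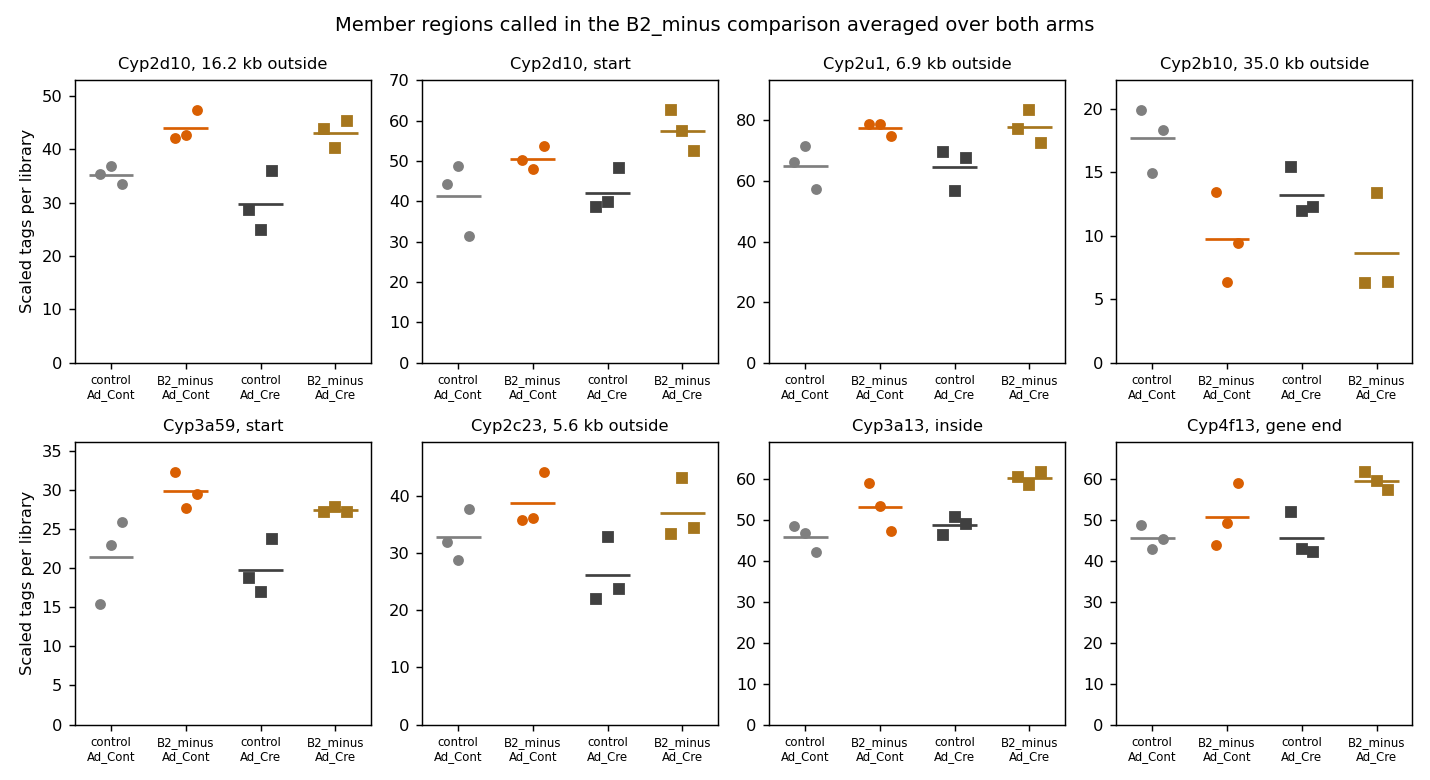
Scaled tags per library (y axis, from 0) for the 8 member regions called in the B2_minus comparison averaged over both arms, with 3 points and their mean line for each group. All 6 B2_minus libraries lie above all 6 controls at Cyp2d10 (16.2 kb outside), Cyp2u1 and Cyp3a59, and Cyp2b10 is the region that fell.

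These calls rest on a variance estimate that fell below Poisson counting noise. The SE of each of the 8 is smaller than counting of its tags alone would give. Other edgeR SEs given here come from the same fit. DESeq2 and edgeR with the variance bounded at Poisson called 0 of the 206 in the averaged comparison (unadjusted p under 0.05 for 7 and 18). Summing the peaks of a region in place of taking the highest called 2, neither among the 8. Of all tested regions, DESeq2 called 0.0453%, the Poisson bound 0.981% and summed peaks 1.45%. Leaving out each of the 12 libraries in turn, the region outside Cyp2d10 was called 12 of 12 times, the Cyp2d10 start and the Cyp2b10 region 11 times, Cyp2u1 10, Cyp3a59 7, Cyp2c23 6, and Cyp3a13 and Cyp4f13 3 times each.

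A small upward lean was spread over many members. The log2 fold change was above 0 at 128 of 206 members (62.1%), with a median of 0.087, against 51.1% and 0.0049 over all tested regions. Such a lean was not particular to members. At hepatocyte marker genes 62 of 100 regions were above 0 (median 0.051), and at other P450 families 60 of 100 (median 0.050). The differences between these sets were not tested. With Ad_Cont alone the medians of members and of all regions were 0.076 and 0.0066, and with Ad_Cre 0.056 and 0.0032. Without Cont_Ad_Cre replicate 1 the members' median with Ad_Cre was 0.022 against 0.0041, with 53.9% in place of 59.7% above 0. Scaling by listed tags in place of TMM raised the median of all regions to 0.10 and the members' positive count to 158 (76.7%), and made 26 of 27 called members and 9753 of 11751 called regions higher. The members' median stood 0.082 above that of all regions under either scaling. Rescaling libraries shifts all regions nearly alike, so this difference could hardly change and is no check of the lean. When presence in 3 or more libraries was enough for testing, the lean was smaller: 286 of 519 members (55.1%) were above 0, with a median of 0.028, which is 0.034 above that of all regions. B2_minus and control did not overlap at 37 members with Ad_Cont (21 up, 16 down, 18.0%) and 37 with Ad_Cre (26 up, 11 down), where 17.3% and 17.5% of all tested regions did not overlap. Over both arms, 6 members (2.91%) had all B2_minus libraries above all controls and 0 the reverse. Of all 101575 regions 2.23% did not overlap in either direction, 912 with B2_minus above and 1354 with B2_minus below.

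Those 6 were the regions at Cyp2d10 (the outer one), Cyp2u1 and Cyp3a59, described above, and 3 that did not pass the test. They lay at the start of Cyp2d9, at the start of Cyp2f2, an enzyme best known from lung airway cells, and inside Cyp2c29. Cyp2d9, a male-biased steroid 16-alpha-hydroxylase, had 33.2, 28.9 and 35.6 scaled tags in Cont_Ad_Cont and 39.4, 39.4 and 40.0 in B2_minus_Ad_Cont (chr15:82452179-82452406). With Ad_Cre it had 25.4, 35.8 and 29.8 in control and 36.5, 43.1 and 36.3 in B2_minus. Its log2 fold change was 0.31 (SE 0.108, edgeR adjusted p 0.0620). Cyp2f2 stood at 17.3 ± 0.934 in Cont_Ad_Cont and 22.5 ± 2.24 in B2_minus_Ad_Cont (SD, n = 3), with an averaged log2 fold change of 0.31 (SE 0.157, edgeR adjusted p 0.255). The start of Cyp2a22 (chr7:26939278-26939605), at 0.50, had an adjusted p of 0.0524 by edgeR. Values there were 17.7, 15.9 and 9.72 in Cont_Ad_Cont and 17.9, 22.4 and 21.0 in B2_minus_Ad_Cont.

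Over the 29 tested start regions, 20 had a log2 fold change above 0, 2 were called and the median was 0.098. Starts of all genes were not tallied in the same way, so regions within 1 kb of either gene end were compared. Of the 61 members there, 62.3% were above 0, 4.92% were called and the median was 0.054. Over all 21568 such regions the values were 49.4%, 3.20% and -0.0021. At the start of Cyp3a11 the log2 fold change was 0.26 (SE 0.183), at Cyp2a5 0.05 (SE 0.18), at Cyp2e1 -0.18 (SE 0.186) and at Cyp2r1 0.01 (SE 0.054). None of these 4 passed the test, and the small SE at Cyp2r1 makes it the most closely measured of them.

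By cluster, the Cyp2d genes on chromosome 15 had 33 tested regions with a median averaged log2 fold change of 0.12, 21 above 0 and 2 called. Their summed scaled tags were 786 to 815 in control libraries. The B2_minus libraries with Ad_Cre, at 861 to 881, all lay above control, and those with Ad_Cont, at 787 to 854, overlapped it. The largest cluster, Cyp2a, Cyp2b, Cyp2f, Cyp2g, Cyp2s and Cyp2t genes on chromosome 7, had 45 regions, 31 above 0 and a median of 0.089. Its sums were 843 to 868 in control and 866 to 938 in B2_minus libraries, and they overlapped by 1 B2_minus library, replicate 2 with Ad_Cre. The Cyp4f cluster had 28 regions with a median of 0.089, and its sums overlapped. The Cyp2j cluster of epoxygenases had 9 of 10 regions above 0 and a median of 0.15, with 0 called by edgeR and 0 at an unadjusted p under 0.05.

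In the Cyp2j cluster the arms were uneven. Sums were 219 to 235 in Cont_Ad_Cont, below every other library, which ranged from 246 to 284. The median log2 fold change of B2_minus was 0.18 with Ad_Cont and 0.068 with Ad_Cre, and no region passed the interaction test. The Cyp2c cluster (17 regions, median 0.082), the Cyp3a cluster (18, 0.058) and the Cyp4a, Cyp4b and Cyp4x cluster (15, 0.0003) had overlapping sums. Cyp4f18, which is best known from white blood cells, had 2 regions, both below 0 with a median of -0.21.

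**Figure D4:**
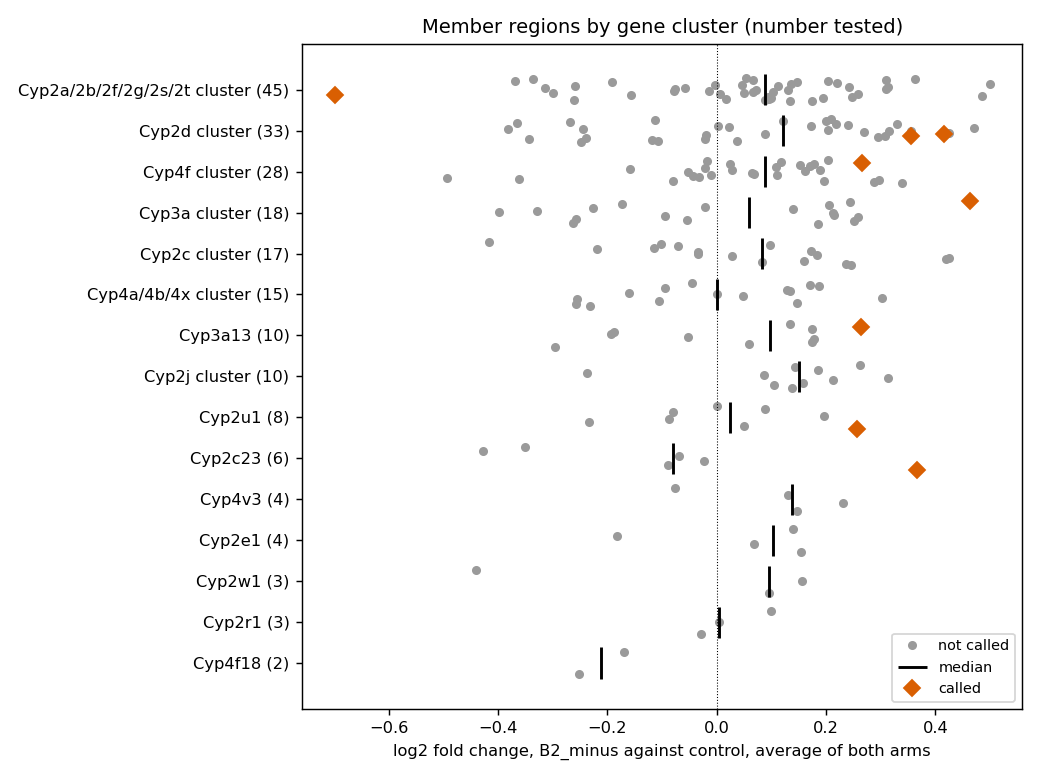
Log2 fold change of B2_minus against control, averaged over both arms, for the 206 tested member regions by gene cluster (number tested in brackets), with medians as bars and the 8 called regions as diamonds. Most clusters have medians between 0 and 0.15, and 7 of the 8 diamonds lie above 0.

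**Figure D5:**
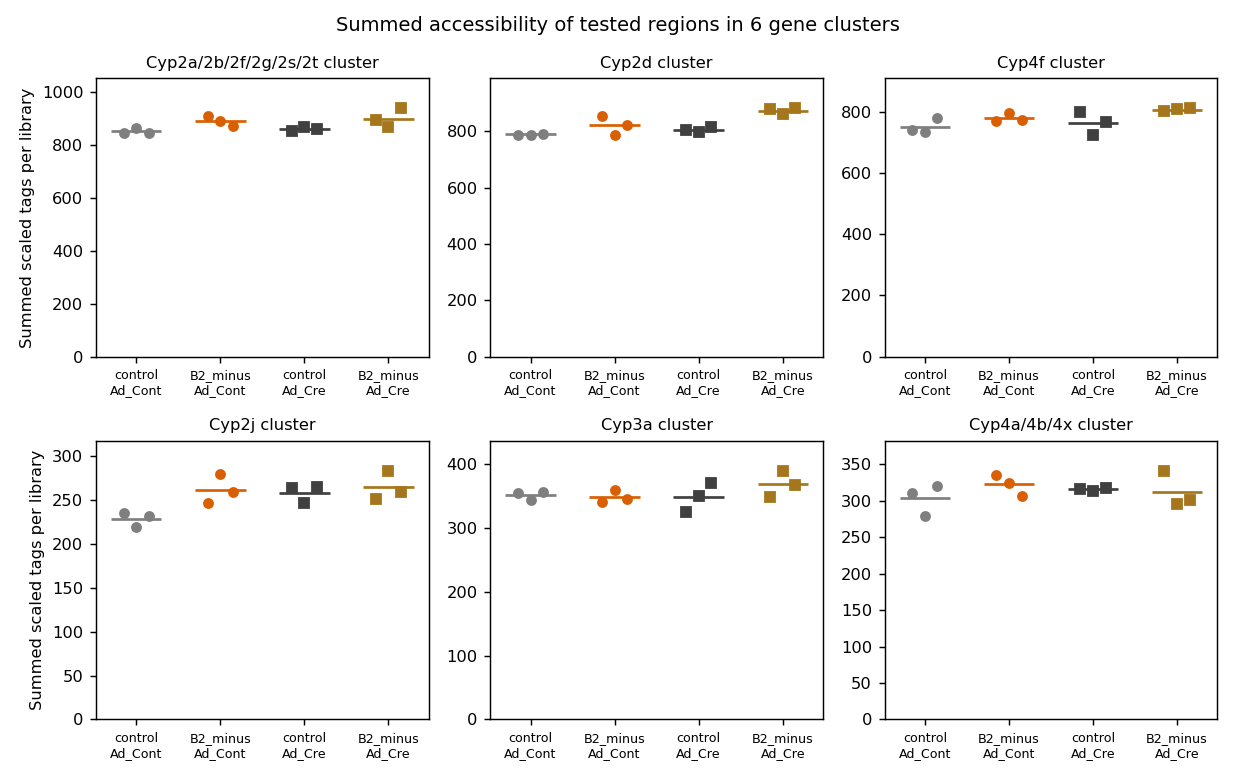
Summed scaled tags of the tested regions per library (y axis, from 0) in 6 gene clusters, with 3 points and their mean line for each group. In the Cyp2d cluster the B2_minus libraries with Ad_Cre lie above the controls, and in the Cyp2j cluster the Cont_Ad_Cont libraries lie below all others.

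Members were also grouped by what is known of their regulation. Genes inducible through CAR or PXR had 35 tested regions, of which 1 rose and 1 fell (5.71%, median 0.067), near the 5.78% of all regions. PPAR-alpha targets of the Cyp4a group had 5 regions with 0 called (edgeR, 0 higher and 0 lower at an unadjusted p under 0.05), and medians of 0.14 with Ad_Cont and -0.15 with Ad_Cre. At an end of Cyp4a10, the fatty acid omega-hydroxylase, values were 10.3 ± 3.28 scaled tags in Cont_Ad_Cont, 11.9 ± 2.11 in B2_minus_Ad_Cont, 12.5 ± 2.98 in Cont_Ad_Cre and 10.6 ± 0.236 in B2_minus_Ad_Cre (SD, n = 3). Male-biased genes had 17 regions, 1 of which rose (5.88%, median 0.088), and female-biased genes 8, 0 of which were called (edgeR, 0 higher and 0 lower at an unadjusted p under 0.05, median 0.029). Genes best known outside the liver had 26 regions with 0 called (edgeR, 5 higher and 1 lower at an unadjusted p under 0.05, median 0.11).

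For comparison, among 24 partner and regulator genes of the P450 system, 433 regions were tested, of which 10 rose and 11 fell (4.85%, median 0.028). Of all tested regions, 2.45% rose and 3.33% fell. At Por, the P450 reductase, 3 of 20 regions fell and 0 rose. At Cyb5a, which encodes cytochrome b5, another electron donor, 2 of 27 rose and 0 fell. The averaged changes were 0.22 (SE 0.0624, edgeR adjusted p 0.0193) and 0.44 (SE 0.121, edgeR adjusted p 0.0139). With Ad_Cont alone they were 0.077 and 0.26 (edgeR adjusted p 0.771 and 0.539). With Ad_Cre they were 0.36 and 0.62 (edgeR adjusted p 0.0172 and 0.0372). The interaction test called 0 of all tested regions. At Cyb5b 1 of 10 rose and 2 fell. The Por region at chr5:135688596-135689264 held 106 ± 1.46 scaled tags in Cont_Ad_Cont and 89.7 ± 3.11 in B2_minus_Ad_Cont (SD, n = 3), a log2 fold change of -0.20 over both arms (SE 0.0553, edgeR adjusted p 0.0147). At Stat5b, which carries the growth hormone signal, 2 of 20 regions fell and 0 rose (gene median -0.048). One of them (chr11:100806414-100806716) fell by 0.89 on the log2 scale (SE 0.172, edgeR adjusted p 0.000229). At Bcl6, the repressor that opposes it, 1 of 26 regions rose, by 0.62 (SE 0.161, edgeR adjusted p 0.00802), and 0 fell (gene median 0.043). Cux2, of the same list, had 17 tested regions with 0 higher and 0 lower (gene median -0.13). A link between these genes was not tested. At Nr1i2, which encodes PXR, 1 of 14 regions rose (0.35, SE 0.0998, edgeR adjusted p 0.0205). Hnf4a had 2 regions up and 2 down, Arnt, Rxra and Nfe2l2 had 1 up each, and Ppargc1a and Onecut1 had 1 down each.

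Other P450 families, tested for comparison, had 100 regions, of which 5 rose and 1 fell (6%, median 0.050). Cyp7a1, the rate-limiting enzyme of bile acid synthesis, had a region inside the gene at 17.8 ± 7.73 scaled tags in Cont_Ad_Cont and 33.6 ± 5.23 in B2_minus_Ad_Cont (SD, n = 3), a log2 fold change of 0.91 (SE 0.205, edgeR adjusted p 0.00946). With Ad_Cre it was 0.35 (SE 0.197, edgeR adjusted p 0.444), and averaged over both arms 0.63 (SE 0.143, edgeR adjusted p 0.00194). Averaged values at the 206 members ranged from -0.70 to 0.50. The difference between the families was not tested.

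Summed levels at markers of stellate cells and cholangiocytes did not overlap between control and B2_minus, and those of hepatocytes, endothelial and Kupffer cells did. Hepatocyte marker genes had 100 tested regions, summing to 2579 to 2767 scaled tags in control and 2748 to 2855 in B2_minus libraries, with 6 up and 3 down. Hnf4a, which is also in the partner and regulator list, gave 27 of these regions, with 2 up and 2 down. Stellate cell markers (18 regions) summed to 495 to 552 in control and 436 to 484 in B2_minus, with 0 up and 3 down. Cholangiocyte and progenitor markers (45 regions) summed to 1308 to 1379 and 1196 to 1284, with 0 up and 8 down. Endothelial markers (45 regions) summed to 1139 to 1205 and 1192 to 1238, with 3 up and 3 down. Kupffer cell markers (8 regions) summed to 183 to 223 and 194 to 211, with 0 up and 1 down, and Adgre1, Clec4f and Timd4 had no tested region. In the averaged comparison the called shares were 9% for hepatocyte, 16.7% for stellate and 17.8% for cholangiocyte and progenitor markers. They were 13.3% for endothelial and 12.5% for Kupffer markers. Of all tested regions 5.78% were called, 2.45% higher and 3.33% lower. Fewer cells of a type and less open chromatin per cell cannot be told apart in such libraries, and the part of these shifts in the changes at members was not tested.

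Ad_Cre was compared with Ad_Cont within each B2 condition, which asks whether the Cre arm differs at these genes. In control 0 of 206 members were called by edgeR, where 0.00591% of all regions were. In B2_minus 0 were called, against 0.00197%. The interaction of B2_minus and Ad_Cre had 0 calls against 0% of all regions. Unadjusted p was under 0.05 for 14, 19 and 10 members (6.80%, 9.22% and 4.85%), where the shares of all regions were 7.82%, 7.29% and 5.14%. DESeq2 and limma also called 0 in these 3 comparisons. Arms did not overlap at 18 members in control and 23 in B2_minus (8.74% and 11.2%), below the 12.4% and 12% of all regions. The median log2 fold changes of members were 0.030 and 0.029, against 0.0041 and -0.0011 over all regions.

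The start of Cyp2e1 had the second lowest p among members for Ad_Cre in control and was higher in the Cre arm in control and B2_minus alike (chr7:140763426-140763766). It held 11.1, 9.95 and 7.56 scaled tags in Cont_Ad_Cont and 18.7, 19.9 and 12.3 in Cont_Ad_Cre. In B2_minus it held 8.06, 8.53 and 8.42 with Ad_Cont and 14.6, 17.2 and 12.7 with Ad_Cre. The arms did not overlap in either condition. Log2 fold changes were 0.80 (SE 0.252, edgeR adjusted p 0.311) in control and 0.82 (SE 0.263, edgeR adjusted p 0.410) in B2_minus, so neither passed the adjusted test, and the Ad_Cont values lie near the lowest listed counts. The start of Cyp2j6 (chr4:96553460-96553732) had 74.0, 68.7 and 72.3 in Cont_Ad_Cont and 88.2, 86.5 and 87.6 in Cont_Ad_Cre, without overlap (0.29, SE 0.0891, edgeR adjusted p 0.304). In B2_minus, where the arms overlapped, it was 0.06 (SE 0.0842, edgeR adjusted p 0.927).

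In B2_minus the lowest p values for Ad_Cre were at a region 11252 bp outside Cyp2b19, at -0.67 (SE 0.2, edgeR adjusted p 0.327), and 2353 bp outside Cyp2d22, at -0.59 (SE 0.179, edgeR adjusted p 0.345). The region outside Cyp2b19 (chr7:26745550-26745890) held 26.0, 27.7 and 31.6 scaled tags in B2_minus_Ad_Cont and 20.9, 16.3 and 16.3 in B2_minus_Ad_Cre, without overlap. In control the arms overlapped, at 29.6 ± 2.44 and 26.3 ± 3.19 (SD, n = 3).

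For B2_minus within single arms, the lowest p with Ad_Cont was inside Cyp2d22 (chr15:82376651-82376962). It held 48.6, 58.7 and 60.5 scaled tags in Cont_Ad_Cont and 36.7, 44.8 and 42.1 in B2_minus_Ad_Cont, without overlap (-0.45, SE 0.128, edgeR adjusted p 0.0515). With Ad_Cre the same region held 40.8, 42.8 and 57.0 in control and 45.9, 50.8 and 41.7 in B2_minus (-0.04, SE 0.127, edgeR adjusted p 0.928). The interaction at this region was 0.41 (SE 0.18, edgeR adjusted p 0.952). Without Cont_Ad_Cont replicate 1 the region was called with Ad_Cont (edgeR adjusted p 0.0423). The lowest interaction p values were 8034 bp outside Cyp2e1 (1.32, SE 0.372, edgeR adjusted p 0.823) and at an end of Cyp2d11 (-1.005, SE 0.373, edgeR adjusted p 0.952). Near Cyp2e1 (chr7:140755053-140755785) Cont_Ad_Cont held 7.74, 9.95 and 19.4 scaled tags, B2_minus_Ad_Cont 7.17, 8.53 and 10.5, Cont_Ad_Cre 7.72, 7.95 and 8.76 and B2_minus_Ad_Cre 14.6, 13.4 and 15.4. The last group lay above the other libraries there, except the Cont_Ad_Cont library at 19.4.

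Members were followed out to 50 kb. The tested member farthest from its gene lay 42599 bp outside Cyp2a22, at 21.4 scaled tags with an averaged log2 fold change of 0.22. The nearest tested region beyond the limit lay 51533 bp outside Cyp2d40, at 15.4 scaled tags and 0.05.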

How the data were processed

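The deposited files listed ATAC-seq peaks, with a whole-number tag count per peak in the values the authors deposited. That these are unscaled counts was inferred, as no header names the unit. Bowtie2, HOMER and mm10 are named per the submitters' processing notes, without versions or roles. How read shifting and duplicates were treated is not given in the sources. Lists held 200698 to 281141 peaks and 3897632 to 5557678 tags per library, after 0.151% of peaks off chromosomes 1 to 19 and X were left out. Sequencing depth is unknown. The 8 HepG2 libraries of the series were not used.

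Each region took the count of its highest peak in a library. Regions with a peak in all 12 libraries were fitted with edgeR 4.0.16 in R 4.3.3 (TMM, quasi-likelihood test, variance not bounded at Poisson), in 1 model of 4 groups, with Benjamini-Hochberg adjustment over 101575 regions and a threshold of 0.05. Fold changes come from that fit. The 12 libraries share 1 spread, and no replicate block was used. Scripts were tested on simulated data. Members, lists, the averaged comparison and the variance setting were chosen with earlier results of these data known.

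A tie for the nearest gene (2 member regions) went to the shorter gene body. Clusters join member genes with gaps of at most 500 kb. Named regions were those called, the strongest of each cluster, the strongest within 1 kb of an end of preset liver genes, the 2 lowest p values of a comparison without calls, and regions present under 1 B2 condition only. Cyp2a22, Cyp3a25, Cyp2c29, Cyp4f17 and the partner regions were chosen after their values were seen. Starts came from RefSeq on GRCm38.p6, read with Biopython 1.88. Alternatives were DESeq2 1.42.0, listed-tag scaling, a Poisson bound, limma 3.58.1, a mean of 15 tags, peaks in 3 libraries, summed peaks, 10 kb, a replicate block and leaving out each library.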

Additional observations from a re-analysis of the deposited data

Results flagged for a closer look

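Inside Cyp4f17 (chr17:32522043-32522345) control and B2_minus moved apart in opposite directions in the 2 arms. With Ad_Cont, values were 24.3, 21.9 and 22.7 scaled tags in control and 19.7, 19.2 and 17.9 in B2_minus, a log2 fold change of -0.27. With Ad_Cre they were 14.3, 17.9 and 19.3 in control and 19.8, 25.9 and 27.2 in B2_minus, a change of 0.49. The 2 conditions did not overlap in either arm. It was the only member of 206 to do so, and the interaction had an edgeR adjusted p of 0.952 (unadjusted 0.0124). The share of all tested regions with this pattern was not counted, so 1 member cannot be called unusual. In the single arms the conditions did not overlap at 17.3% of all tested regions with Ad_Cont and 17.5% with Ad_Cre.

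The region 27383 bp outside Cyp2b10 (chr7:25869927-25870275) lies outside the tested set, since it had no peak in control. It was listed in 6 of 6 B2_minus libraries and 0 of 6 control libraries. Its 6.26 to 9.59 scaled tags are close to the smallest counts in the lists, 6 to 8 tags.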

How the results depend on the processing

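Called members in the averaged B2_minus comparison numbered 8, where 5.78% of all tested regions were called. The count was 0 with DESeq2 (0.0453% of all regions) and 0 with the variance bounded at Poisson (0.981%). Summed peaks gave 2 (1.45% of all regions). Listed-tag scaling gave 27, which holds all 8 (13.1% of members, 11.6% of all regions). The 2 called with summed peaks lay at Cyp4f39 and Cyp3a25. Leaving out 1 library gave 5 to 8 calls, with 5 without Cont_Ad_Cont replicate 2, Cont_Ad_Cre replicate 3 or B2_minus_Ad_Cre replicate 2. Of all regions, 4.08% to 4.99% were called when 1 library was left out. Limma gave 7 (5.31% of all regions), a mean of 15 tags 6 (6.33%) and a 10 kb limit 6 (5.78%). Peaks in 3 libraries gave 9 (1.65% of all regions), of which 6 were among the 8. With Ad_Cont the count of 0 became 1 with a mean of 15 tags (1.4% of all regions). It was 0 to 1 leaving out a library, with 1 without Cont_Ad_Cont replicate 1 (0.435% of all regions). With Ad_Cre the count of 0 became 12 with listed-tag scaling (4.49% of all regions) and 1 with limma (0.778%). It was 0 to 3 leaving out a library, with 3 without Cont_Ad_Cre replicate 3 (0.446% of all regions). The cause was not tested. The other 3 comparisons gave 0 under every alternative run.

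With the replicate number as a block, the averaged comparison had 8 calls (5.75% of all regions). The B2_minus comparison with Ad_Cre had 1 (1.15% of all regions). The numbers were not found to pair libraries: same-numbered libraries correlated at -0.016 to 0.0123 in their deviations from group means (0 of 18 pairs over 0.1). The alternatives gave 307 values for 18 results at named regions, all chosen for a call or a low p. Of these values, 0 changed sign, 62 lost the call and 8 gained it. Results chosen for a low p in the same data tend to keep their sign, so this is no check of direction. Regions named for their level were not included. Weak regions are limited by the lowest listed counts.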

Other observations

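A peak in at least 5 of 6 B2_minus libraries and at most 1 of 6 controls was found at 6 member regions, at Cyp2j6, Cyp3a57, Cyp2b10, Cyp2b9, Cyp2a5 and Cyp2a22, and the reverse at 1, outside Cyp2c50. There were 1090 member regions in all. Over all 642948 regions the counts were 1257 and 1577. Cyp2b10, Cyp2b9, Cyp2a5 and Cyp2a22 share the chromosome 7 cluster, the largest, which holds 224 of the member regions. Listed values at these member regions ran from 6.26 to 13.0 scaled tags, most of them close to the smallest listed counts. Over the 884 members not present in all libraries, 440 were listed in more control than B2_minus libraries and 342 in more B2_minus libraries, and over all regions these counts were 311305 and 171030. Control lists held 200698 to 281141 peaks and B2_minus lists 206940 to 235220, and the part of list length in these counts was not tested.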
